A study of Homo sapiens with 4 samples.

Results

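The 5 genes described here encode forkhead transcription factors: FOXP1, FOXP4, FOXO1, FOXO3 and FOXO4, of 19974 protein-coding genes placed on an autosome or the X chromosome. They were taken by name, and every BCL6 peak whose summit lay inside the gene or within 50 kb of either annotated end was assigned to them. That gave 60 peaks, 35 of 5237 in replicate 1 and 25 of 3536 in replicate 2. The assay was CUT&RUN for BCL6, in which an antibody guides a nuclease to chromatin and the released fragments are sequenced. The nuclei came from SUDHL5, a cell line established from diffuse large B-cell lymphoma (DLBCL), with no treatment named in the labels, within a study of a bivalent molecular glue that brings lysine acetyltransferases to BCL6. The 2 BCL6 libraries are labelled as biological replicates of 1 cell line. The 2 matching libraries with normal rabbit IgG were not analysed here. The peak lists hold no expression values, so the labelled cell type was not checked against marker genes.

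BCL6 is a transcriptional repressor of germinal centre B cells that binds DNA through zinc fingers and recruits co-repressors. FOXP1 and FOXP4 are forkhead proteins of the FOXP branch, which act mainly as repressors and can pair with each other. FOXP1 is required for early B-cell development in mice, is lowered in germinal centre B cells relative to resting B cells, and is expressed in DLBCL as full-length and shorter forms that start at inner promoters. FOXO1, FOXO3 and FOXO4 are activators that signalling through PI3K and AKT holds in the cytoplasm, and when nuclear they drive genes of arrest, apoptosis and B-cell differentiation. FOXO1 maintains the dark zone of the germinal centre in mice and is mutated in some DLBCL.

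The start windows that a peak covered, or that shared regions flanked, are shown first. Each sequence is the RefSeq promoter window of GRCh38.p14 (the assembly of hg38), 300 bases long, from 250 before to 50 after a listed start, written 5′ to 3′ on the strand of the gene. The FOXP1 window, chr3:71064875-71065174 on the minus strand, belongs to the innermost of 6 starts listed for this gene and sits between a pair of regions bound in both replicates. The FOXO3 window, chr6:108559575-108559874 on the plus strand, lay wholly under a replicate 2 peak. Of the FOXP4 window, chr6:41546131-41546430 on the plus strand, 56 bases were covered by a replicate 1 peak. Capitals mark the short forkhead core TGTTTA (or TAAACA on the other strand).
FOXP1 innermost start: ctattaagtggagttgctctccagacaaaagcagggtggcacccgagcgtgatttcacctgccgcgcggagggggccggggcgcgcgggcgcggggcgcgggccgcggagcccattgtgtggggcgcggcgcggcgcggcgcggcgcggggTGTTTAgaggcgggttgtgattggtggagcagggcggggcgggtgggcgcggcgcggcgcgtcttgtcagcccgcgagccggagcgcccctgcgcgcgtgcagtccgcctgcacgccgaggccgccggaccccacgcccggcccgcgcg
FOXO3 outermost start: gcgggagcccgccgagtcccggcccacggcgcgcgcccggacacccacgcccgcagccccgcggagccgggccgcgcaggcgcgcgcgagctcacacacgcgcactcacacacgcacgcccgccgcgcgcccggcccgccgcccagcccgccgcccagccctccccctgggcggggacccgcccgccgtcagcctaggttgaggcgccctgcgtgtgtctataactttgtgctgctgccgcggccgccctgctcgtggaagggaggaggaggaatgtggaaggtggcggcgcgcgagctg
FOXP4 start: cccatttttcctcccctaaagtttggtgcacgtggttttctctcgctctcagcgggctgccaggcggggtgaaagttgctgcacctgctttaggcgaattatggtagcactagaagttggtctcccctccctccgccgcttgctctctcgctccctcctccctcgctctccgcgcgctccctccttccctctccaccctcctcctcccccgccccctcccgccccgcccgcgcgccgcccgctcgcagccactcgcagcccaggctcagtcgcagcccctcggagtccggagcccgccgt
All 5 genes matched the promoter table, with 13 windows in all. The BCL6 motif searched, TTCCTNGAA on either strand, was in none of the 13, and it was in 1.29% of 22132 windows of protein-coding genes of the same length. The wider STAT-like motif TTCNNNGAA, which contains it, was in 1 FOXP1 window, that of chr3:71245028-71245327, against 6.79% of all windows. The forkhead motif TGTTTAC was in that same FOXP1 window and in the FOXO4 window, against 2.85% of all. The short core, which the longer motif contains, was in 4 of the 13 windows and in 9.52% of all. A match describes letters only. GC content was 77.3% in the FOXP1 window shown, 78.3% in that of FOXO3 and 67.7% in that of FOXP4, against a median of 62.3% over all windows. The windows of these genes that are not shown, none of them covered by a peak, ran from 39.3% to 76.3%.

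The members differed widely in how many BCL6 peaks they held. FOXP1 had 21 peaks in replicate 1 and 18 in replicate 2, and FOXO1 had 12 and 5. FOXO3 had 1 and 2, FOXP4 had 1 and 0, and FOXO4 had 0 and 0. So 4 of the 5 had a replicate 1 peak, against 29.5% of all protein-coding genes, and 3 of 5 had a replicate 2 peak, against 23.3%. A region in which a peak of each replicate overlapped by at least 1 bp, called shared here, was present at FOXP1 (7), FOXO1 (1) and FOXO3 (1), thus at 3 of 5 genes against 10.2%. These genes were chosen with earlier results of these data known, and long genes have more room for peaks, so the counts are given without a test.

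FOXP1 ranked 2 of 19974 genes by the number of peaks in its window, level with the histone gene H4C5 (39 peaks) and behind LPP (41). It is also a long gene of 629 kb. Among the 168 other genes whose span is within 20% of that of FOXP1, the median was 0 peaks, 109 had none, and LPP was the only gene with at least 39. The next 4 of that span were PARD3 with 17 peaks, KLF12 with 11, PRKCE with 10 and CFAP299 with 9. FOXP2, a paralogue spanning 607 kb, had no peak in either list. Counted per length of window, FOXP1 had 5.35 peaks per 100 kb and ranked 235. FOXO1, over a span of 111 kb, had 8.06 per 100 kb and ranked 97. By density over both lists together it thus stood above FOXP1. That order rests on replicate 1, with 12 peaks in the FOXO1 window of 211 kb and 21 in the FOXP1 window of 729 kb. Replicate 2 had 5 and 18 peaks there, and shared regions were 1 and 7. Neither of these put FOXO1 above FOXP1 by density. FOXO3 had 1.33 and FOXP4 0.641 per 100 kb. The genes with the most shared regions were H4C5, H1-5, H2AC16, H3C11 and H4C13, with 13 each, all in the histone clusters of chromosome 6. H1-5, H2AC16, H3C11 and H4C13 lie close together and share regions with one another, while H4C5 lies in a separate part of the chromosome. FOXP1, with 7, was 1 of 48 genes with at least 7.

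**Figure D1:**
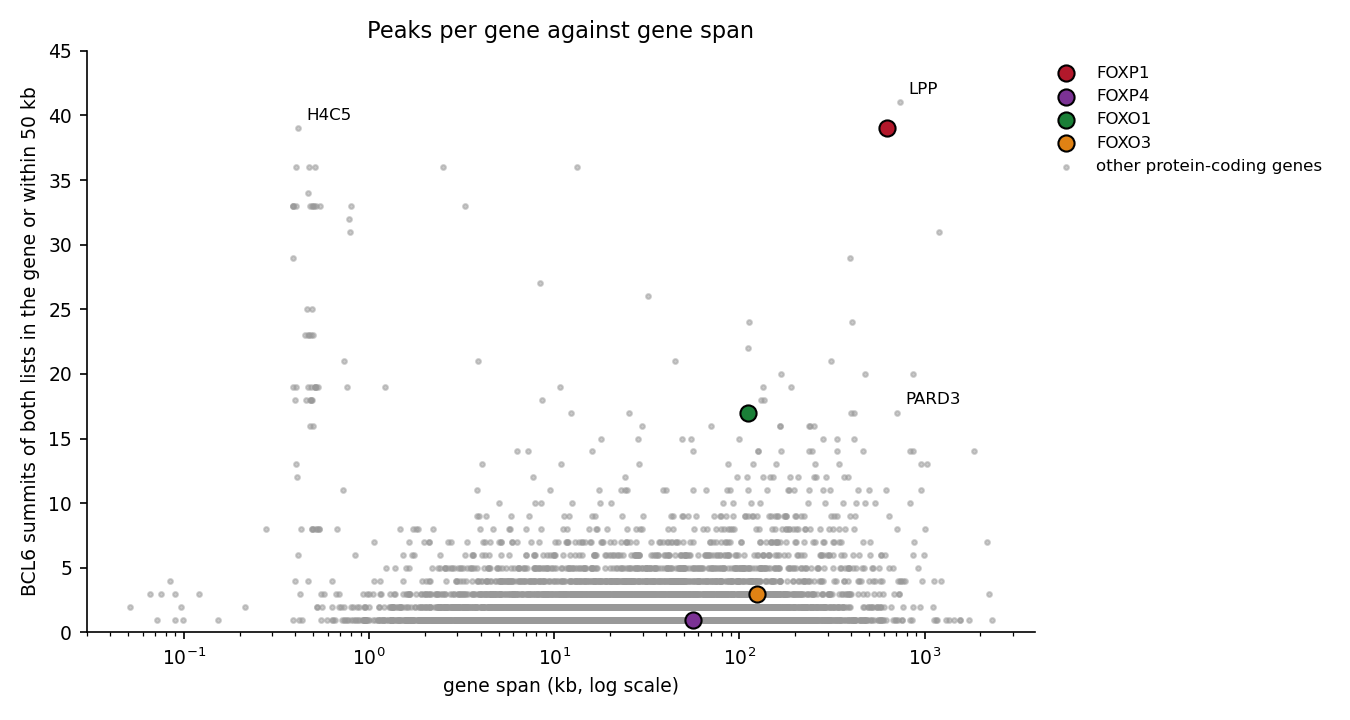
Number of BCL6 summits of both lists in each gene or within 50 kb (y axis, linear) against the span of the gene in kb (x axis, log scale). Each grey point is a protein-coding gene and the coloured points are FOXP1 (39 peaks), FOXP4 (1), FOXO1 (17) and FOXO3 (3); the 12533 genes with no peak, FOXO4 among them, are not drawn.

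All 39 FOXP1 summits lay inside the gene on chromosome 3, from 70954708 to 71583978, and none in the 50 kb on either side. Transcription runs on the minus strand, and positions below are given downstream of the outermost of the 6 listed starts. Taking summits no more than 50 kb apart as a group, a distance chosen after their values were seen, the peaks formed 3 groups and 2 lone sites. The first group ran from 1.27 to 38.8 kb downstream and held 14 peaks, 8 of replicate 1 and 6 of replicate 2, with 2 shared regions. The second ran from 94.5 to 194 kb and held 11 peaks, 6 and 5, with 2 shared regions. The third ran from 451 to 519.5 kb and held 12 peaks, 5 and 7, with 3 shared regions. The lone sites, at 278 and 357 kb, were both of replicate 1. The last 109 kb of the gene, which follows the innermost start, held no peak. The first group is also the densest 50-kb stretch of the gene. Of 8759 stretches of 50 kb that begin at a summit, 149 (1.70%) held at least its 14 summits, and the median stretch held 2. These stretches overlap one another, and the FOXP1 stretch was picked as the densest of its gene. The percentage is therefore no share of genes and no measure of how rare such a stretch is.

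**Figure D2:**
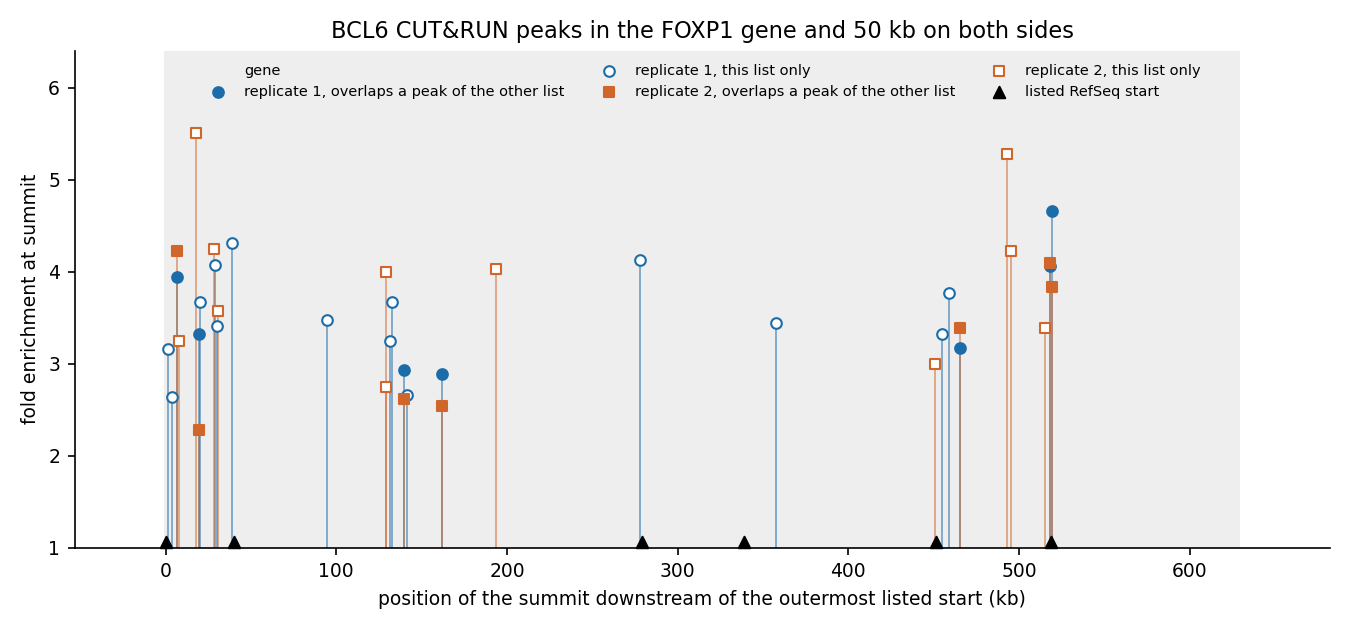
Fold enrichment at each BCL6 summit (y axis, starting at 1, which is no enrichment) against its position downstream of the outermost listed FOXP1 start in kb (x axis). Circles are replicate 1 and squares replicate 2, filled where the peak overlaps a peak of the other list; triangles mark the 6 listed starts and grey the gene. Peaks gather at 1.27 to 38.8, 94.5 to 194 and 451 to 519.5 kb, with both replicates in each group.

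The FOXP1 peaks had fold enrichments close to the medians of the lists. The fold enrichment given by the authors, the summit over its local background, ranged from 2.64 to 4.66 in replicate 1 (median 3.45) and from 2.28 to 5.51 in replicate 2 (median 3.70). The medians of the whole lists were 3.55 and 3.74. The median −log10 q was 3.67 in replicate 1 and 2.93 in replicate 2, against 3.94 and 3.77 over the lists. A −log10 q of at least 5 was reached by 5 of 21 and 5 of 18 FOXP1 peaks, against 34.8% and 32.6% of the lists. None reached 10, which 9.50% and 9.27% of the lists did.

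Of the FOXP1 peaks, 7 of 21 in replicate 1 overlapped a replicate 2 peak (33.3%, Wilson 95% interval 17.2 to 54.6), against 25.7% of all replicate 1 peaks. In replicate 2, 7 of 18 overlapped a replicate 1 peak (38.9%, 20.3 to 61.4), against 38.4%. Both intervals include the share of the list. Pileup here is the whole-number count over the summit, as recovered from the authors' fold and p. Whether it counts fragments or single reads is not known. The median pileup was 28 for shared and 19 for the other replicate 1 peaks at FOXP1, and 22 and 17 in replicate 2. Over the whole lists these medians were 31 and 21 in replicate 1 and 26 and 18 in replicate 2. The local background at FOXP1 had medians of 7.86 for shared and 4.50 for the other replicate 1 peaks, and of 5.83 and 3.62 in replicate 2. The whole lists had 7.86 and 5.25 in replicate 1 and 5.93 and 4.04 in replicate 2, so shared peaks had the higher medians there as well. The part of background and pileup in which peaks were found again was not tested.

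Both regions that flank the innermost FOXP1 start were shared. At chr3:71062989-71064782 replicate 1 had a fold enrichment of 4.66 (pileup 28, 95% Poisson interval 18.6 to 40.5) and replicate 2 had 3.84 (pileup 17, 9.90 to 27.2). Its summits lay 726 and 293 bp downstream of that start. The region chr3:71065209-71065860 had fold enrichments of 4.06 and 4.10 and pileups of 35 (24.4 to 48.7) and 27 (17.8 to 39.3). Its summits lay 584 and 593 bp upstream of the start and 9 bp from each other. The regions are 426 bases apart, and the 300-base window printed above lies in that space, 35 bp from the nearest replicate 1 peak and 93 bp from the nearest replicate 2 peak. Intervals of pileups and shares account for counting error alone. They treat peaks, and the fragments or reads counted with any copied by PCR, as independent of one another.

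The other 5 shared regions of FOXP1 lay away from its starts. At chr3:71118045-71118459, the third region of the same group, replicate 1 had a fold of 3.17 and replicate 2 one of 3.39, with summits 8 bp apart and 14.0 kb downstream of a listed start. At chr3:71421735-71422086 the folds were 2.89 and 2.54, and pileups of 36 (25.2 to 49.8) and 26 (17.0 to 38.1) stood on backgrounds of 11.8 and 9.64. At chr3:71443485-71444469 the folds were 2.93 and 2.61. These last 2 are the shared regions of the group with 11 peaks. The folds of its peaks ran from 2.67 to 3.67 in replicate 1 and from 2.54 to 4.03 in replicate 2. The region chr3:71564143-71564808, 19.4 kb downstream of the outermost start, had 3.32 in replicate 1 and 2.28 in replicate 2, with a replicate 2 background of 12.6. The region chr3:71576465-71577831, 6.60 kb downstream of the outermost start, had 3.94 and 4.22, with pileups of 26 (17.0 to 38.1) and 22 (13.8 to 33.3). The smaller of both folds was at most 4.06 in all 7 regions and had a median of 3.17, against 3.30 over all 1311 shared regions. In 3 of 7 it fell under 2.82, the lower quartile of all shared regions.

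**Figure D3:**
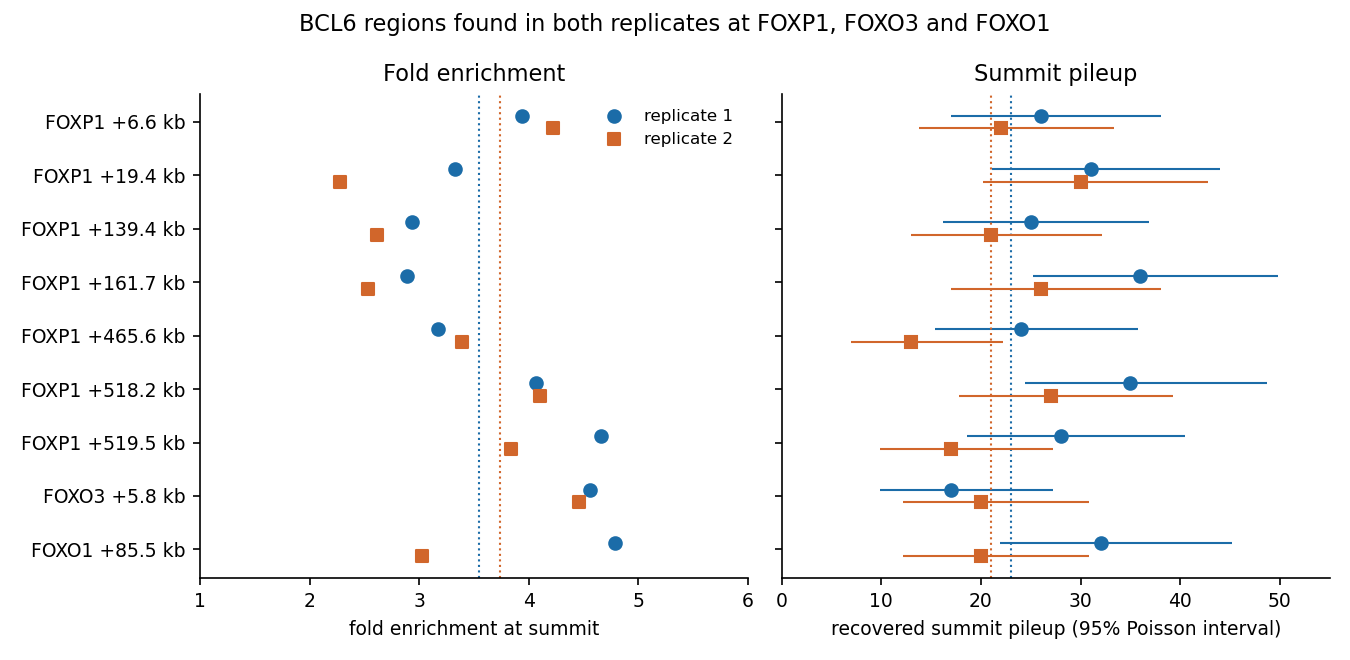
Fold enrichment (left) and recovered summit pileup with its 95% Poisson interval (right) in replicate 1 (circles) and replicate 2 (squares) for the 9 shared regions, each named by its gene and its position downstream of the outermost listed start. Dotted lines are the medians of the whole lists (fold 3.55 and 3.74, pileup 23 and 21). The pileup intervals of the replicates overlap in 9 of 9 regions. They are wide, and every region was chosen for a peak in both lists, so the overlap is no test of agreement. The replicate 1 pileup is the higher in every region except that of FOXO3.

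The 2 strongest FOXP1 peaks found in a single list were of replicate 2. The peak chr3:71565639-71566170, with a fold enrichment of 5.51 and a pileup of 27 (17.8 to 39.3), had its summit 1.43 kb from the nearest replicate 1 summit. The peak chr3:71090197-71090705 had 5.28 and a pileup of 17 (9.90 to 27.2), with the nearest replicate 1 summit 25.2 kb away. The peak chr3:71555453-71555885 had 4.25. The 3 strongest of replicate 1 alone had 4.31 (chr3:71544570-71544922), 4.13 (chr3:71305099-71305739) and 4.08 (chr3:71554452-71554749). The first of these lay 1325 bp upstream of a listed inner start. The second lay 749 bp upstream of another and inside FOXP1-AS1.

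Many FOXP1 peaks of a single list stood beside a peak of the other replicate without touching it. Of the 14 replicate 1 peaks with no overlap, 8 had a replicate 2 summit within 5 kb (57.1%, Wilson 95% interval 32.6 to 78.6), against 21.2% over the whole list. Of the 11 in replicate 2, 8 had a replicate 1 summit within 5 kb (72.7%, 43.4 to 90.3), against 29.2%. Several of these pairs are counted in both shares, and neighbouring peaks of a gene are not independent, which the intervals ignore. A gene crowded with peaks brings summits close together in any case, and this was not tested. Of the FOXP1 summits, 3 of 21 in replicate 1 lay within 1 kb of any listed start, against 32.3% of the replicate 1 summits compared. In replicate 2 it was 3 of 18, against 35.6%. These counts are small, and the difference from the lists was not tested. The replicate 2 summit at chr3:71132941-71133275, with a −log10 q of 2.63, lay 892 bp upstream of another inner start. The window of the outermost start held no peak of either list, and the nearest summit was that of the replicate 1 peak chr3:71582303-71583020, 1.27 kb downstream, with a fold of 3.16.

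FOXO1, on chromosome 13 from 40555667 to 40666641, had peaks on both sides of its start, and the lists differed there. Its 12 replicate 1 peaks had fold enrichments from 2.31 to 5.07 (median 4.10) and its 5 replicate 2 peaks from 2.95 to 4.09 (median 3.49). The only shared region was chr13:40580675-40581624, deep in the gene and 85.5 kb downstream of its single listed start. There replicate 1 had a fold of 4.79 and a pileup of 32 (21.9 to 45.2), and replicate 2 had 3.03 and 20 (12.2 to 30.9), on almost equal backgrounds of 5.90 and 5.93. The summits were 430 bp apart, and the replicate 2 summit lay close to the end of its peak. A neighbouring replicate 1 peak, 86.7 kb downstream of the start, had a fold of 4.58.

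Inside FOXO1 both lists had further peaks, none of which overlapped. Between 69.2 and 76.6 kb downstream of the start, the replicates had 2 peaks each, with folds of 3.52 and 3.44 in replicate 1 and of 3.49 and 2.95 in replicate 2. Within that stretch a replicate 1 summit lay 594 bp from a replicate 2 summit. Nearer to the start, the peaks chr13:40652083-40652927 and chr13:40653295-40653702 were of replicate 2 alone, with folds of 4.03 and 4.09. Replicate 1 alone had peaks 52.1 and 101 kb downstream, with folds of 3.49 and 3.22. The peaks of the replicates were thus interleaved along the gene, and fell on the same bases only at the shared region.

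Upstream of FOXO1 the peaks came from replicate 1 alone, 6 against 0. The pair nearest the start had summits 934 and 2031 bp upstream of it, with folds of 2.31 and 4.14 and pileups of 24 (15.4 to 35.7) and 29 (19.4 to 41.6). A group of 4 lay 26854 to 31794 bp upstream, with folds of 4.06, 5.07, 4.27 and 4.35. The strongest of these, chr13:40693992-40694562, had a pileup of 24 (15.4 to 35.7) on a background of 3.93. The nearest other protein-coding gene to this group was MRPS31, at least 30.7 kb away. Over the whole FOXO1 window replicate 1 made up 12 of 17 peaks (70.6%, Wilson 95% interval 46.9 to 86.7), against 59.7% of both lists together. The upstream stretch was singled out after its values were seen, so its 6 peaks carry no interval or test. No replicate 2 summit lay within 14 kb of any of the 6.

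**Figure D4:**
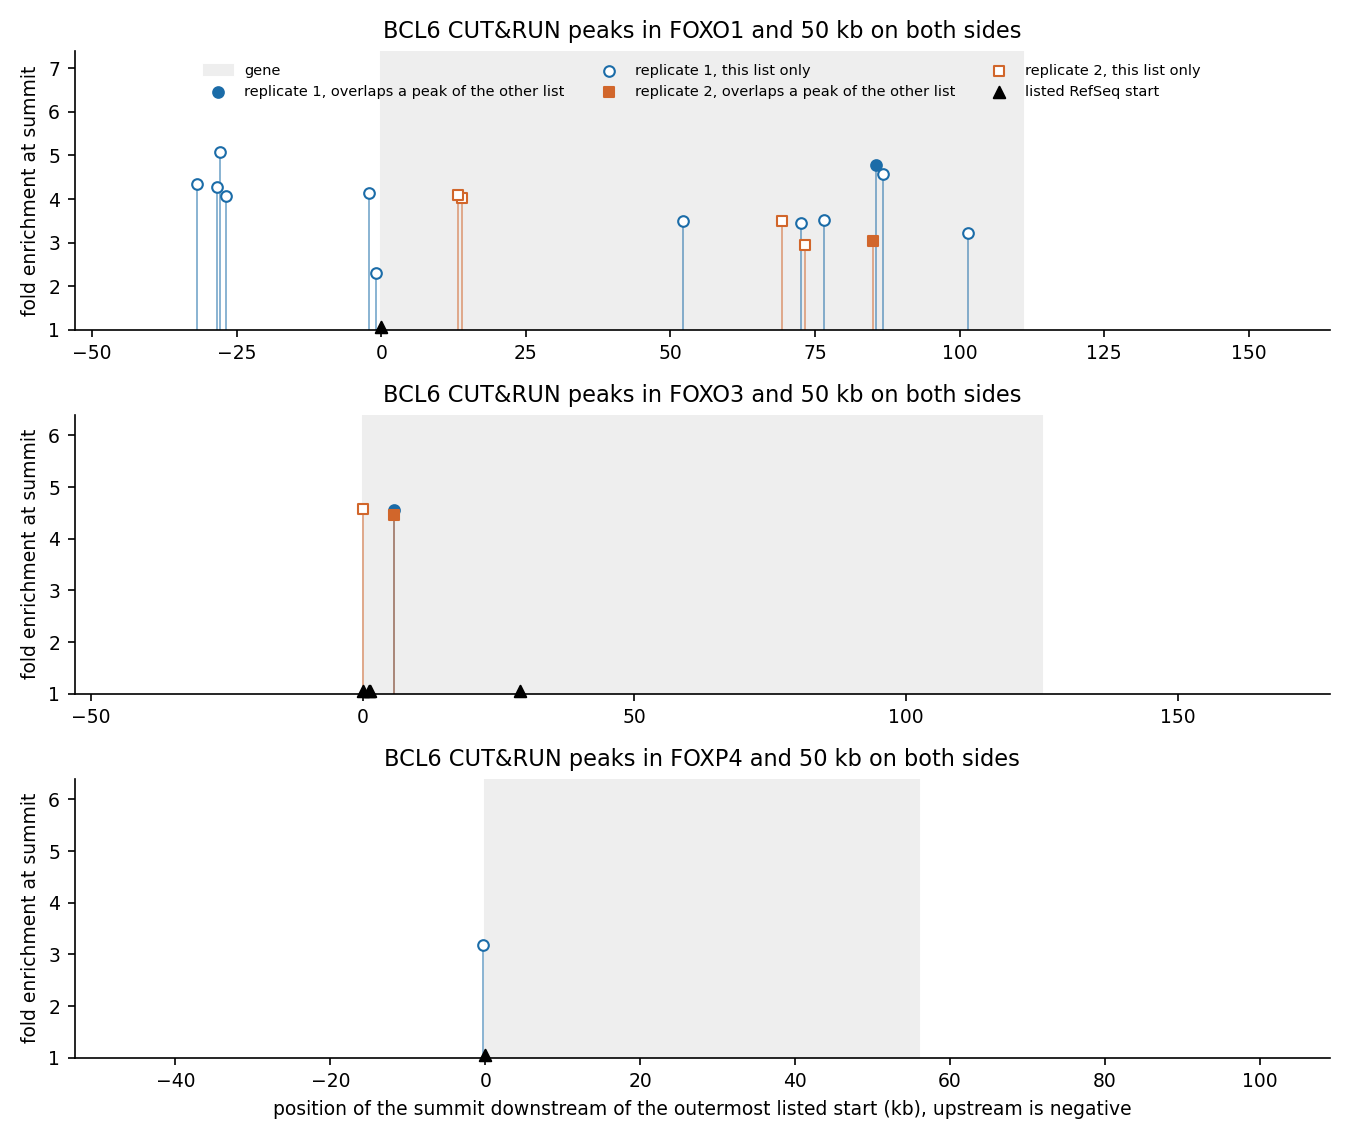
Fold enrichment at each BCL6 summit (y axis, starting at 1) against its position downstream of the outermost listed start in kb (x axis, upstream negative) for FOXO1, FOXO3 and FOXP4. Circles are replicate 1 and squares replicate 2, filled where the peak overlaps one of the other list; triangles are listed starts and grey is the gene. FOXO1 has 6 replicate 1 peaks and no replicate 2 peak upstream, FOXO3 has its peaks in the first 5.80 kb, and FOXP4 has 1 peak.

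At FOXO3, on chromosome 6 from 108559825 to 108684774, the 3 peaks lay in the first 5.80 kb of a gene of 125 kb. The replicate 2 peak over the outermost start, chr6:108559564-108560056, had its summit 84 bp downstream of that start, with a fold of 4.58, a −log10 q of 3.82 and a pileup of 14 (7.65 to 23.5) on a background of 2.27. Replicate 1 had no peak there, and its nearest summit was 5634 bp away. The shared region chr6:108565047-108565687 had summits 77 bp apart, 4378 and 4455 bp downstream of the nearest of 4 listed starts. Its −log10 q was 4.72 in replicate 1 and 5.17 in replicate 2, and its pileups were 17 (9.90 to 27.2) and 20 (12.2 to 30.9) on backgrounds of 2.95 and 3.71. The smaller of its folds, 4.46, was higher than that of any shared region of FOXP1 or FOXO1.

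FOXP4, on chromosome 6 from 41546381 to 41602384, had the single replicate 1 peak chr6:41545837-41546186, whose summit lay 311 bp upstream of the listed start and inside FOXP4-AS1. Its fold was 3.19, its −log10 q 6.02, and its pileup, 38 (26.9 to 52.2) on a background of 11.2, was the highest of any peak of these genes. The nearest replicate 2 summit was 131 kb from the gene. FOXO4, on chromosome X from 71095851 to 71103532, had no peak within 50 kb in either list. The nearest summit lay 962 kb away in replicate 1 and 4171 kb away in replicate 2. The lack of a called peak does not show that BCL6 was absent, and only that none was called at this depth.

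Of 34 other forkhead genes examined, 3 had a replicate 1 peak (8.82%, Wilson 95% interval 3.05 to 23.0), 6 a replicate 2 peak (17.6%, 8.35 to 33.5) and 0 a shared region, which allows up to 10.2% by the same interval. Over all protein-coding genes the shares were 29.5%, 23.3% and 10.2%, and the interval of the replicate 2 share includes that of all genes. The most peaks were at FOXN3, with 3 in replicate 2 and 0 in replicate 1, and at FOXJ2, with 2 in replicate 1 and 0 in replicate 2. FOXM1, which drives mitotic genes, FOXP3, the regulator of regulatory T cells, and FOXO6 had none. The median span of these genes was 4.92 kb, against 24.2 kb for all protein-coding genes.

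Of 31 genes that control FOXO proteins, most of them in PI3K and AKT signalling, 16 had a replicate 1 peak (51.6%, 34.8 to 68.0), 10 a replicate 2 peak (32.3%, 18.6 to 49.9) and 3 a shared region (9.68%, 3.35 to 24.9). The shares over all protein-coding genes were 29.5%, 23.3% and 10.2%, so the share with a shared region was near that of all genes. The 3 shared regions lay inside USP7, a deubiquitinase that acts on FOXO proteins (folds of 3.38 and 4.34), PIK3CD, the catalytic subunit p110δ (3.43 and 2.51), and PIK3R3, a regulatory subunit (2.13 and 2.98). AKT1 and AKT2, kinases that phosphorylate FOXO proteins, had no peak in either list. The median span of these genes, 86.8 kb, is longer than that of all protein-coding genes.

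Of 32 genes known as FOXO targets or as dependent on FOXO in some cell type, 17 had a replicate 1 peak (53.1%, 36.4 to 69.1), 13 a replicate 2 peak (40.6%, 25.5 to 57.7) and 8 a shared region (25%, 13.3 to 42.1), against 29.5%, 23.3% and 10.2% of all protein-coding genes. Shared regions with the largest smaller fold were 8.73 kb from CXCR4, a chemokine receptor of dark-zone B cells (9.35 and 8.47), beside BCL6 itself (6.38 and 11.5), 33.6 kb from GADD45A, a stress gene (4.17 and 4.96), and 15.5 kb from CCND2, encoding cyclin D2 (4.85 and 3.57). For the other genes, the region with the largest smaller fold lay 20.5 kb from CDKN1B, 7.55 kb from BLNK, 28.0 kb from TXNIP and 0.34 kb from BCL2L11. Regions were counted by distance to the listed gene, whatever other genes lay nearer. The region counted for GADD45A lies inside GNG12, and that counted for TXNIP overlaps ANKRD34A and POLR3GL. Neither can be given to the listed gene alone. Regions near BCL6, CXCR4, CCND2 and BCL2L11 were known from earlier results when the list was made, so its share is no independent evidence. The lymphocyte targets IL7R, CCR7, S1PR1, RAG1 and RAG2 had no peak in either list.

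**Figure D5:**
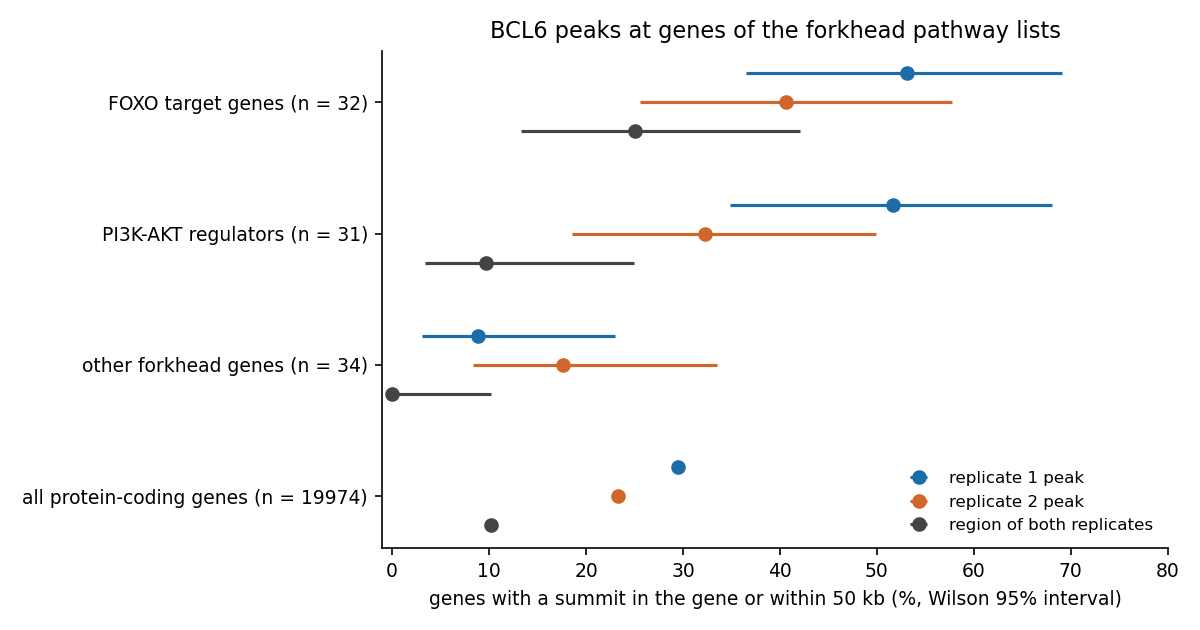
Percentage of genes with a BCL6 summit in the gene or within 50 kb (x axis, with Wilson 95% intervals) for 32 FOXO target genes, 31 PI3K-AKT regulators, 34 other forkhead genes and all 19974 protein-coding genes. Blue is replicate 1, orange replicate 2 and grey a region of both replicates; FOXO targets reach 25% for shared regions and other forkhead genes 0%, against 10.2% of all genes.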

How the data were processed

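The submitters' processing notes name Bowtie2 and MACS2, beside FastQC, cutadapt, SAMtools, Picard, deepTools and bedtools, with build hg38. Versions, settings and the control of the peak caller are not given in the sources available here. The deposited lists hold 1 set of peaks per sample. For each peak the authors deposited a fold enrichment (a ratio), −log10 p, −log10 q, a score and a summit offset. The deposited score equals 10 times the −log10 q without its decimals, and was left out. The smallest deposited −log10 q was 1.31 in both lists.

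Read totals are unknown. The whole-number summit pileup n and background b were solved with SciPy 1.17.1 in Python 3.11.15 from the fold, (n + 1) / (b + 1), and the Poisson p. This reached the deposited −log10 p within 0.001 for all 5230 and 3529 peaks on chromosomes 1 to 22 and X, and in a test on simulated data for 500 of 500 peaks. Median pileups were 23 in replicate 1 and 21 in replicate 2.

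Genes and 300-base windows came from RefSeq tables of GRCh38.p14. No genome sequence was used, so exons and introns were not separated and peak sequences are not shown. Chromosome 8 was left out of the comparison of summits with listed starts. The genes, lists and rules were chosen with earlier results of these data known. Every peak of the FOXO and FOXP4 windows and every shared FOXP1 region was described, with the 3 strongest single-list FOXP1 peaks of each list, up to 4 genes per list by the smaller fold, and 5 genes each of most shared regions and of like span; other names were chosen after their values were seen. Alternatives were other windows, stricter q, other overlap rules and each replicate alone.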

Additional observations from a re-analysis of the deposited data

How the results depend on the processing

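Counting summits within 10 kb or only inside the genes left the FOXP1 counts at 39 peaks and 7 shared regions and the 2 shared FOXO regions, while the FOXO peaks were 16 and 14, against 20. Where a −log10 q of at least 5 was required, FOXP1 held 10 peaks and 2 shared regions, and the FOXO genes 7 peaks and 0 shared regions. With at least 10 there were 0 peaks and 0 shared regions at either. A reciprocal overlap of at least 50% left 4 shared regions at FOXP1 and 1 at the FOXO genes, and summits within 200 bp also gave 4 and 1. Pairing summits within 5 kb gave 15 and 5. Leaving out a replicate gave 18 to 21 FOXP1 peaks and 7 to 13 FOXO peaks, since each count is then that of 1 list. No paired analysis was possible because the lists of only 1 group were analysed and no result comes from a test between groups. The counts of shared regions thus depend on the threshold and on the matching rule. Pileups at these peaks were 12 to 38, which limits the precision of each value.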

Other observations

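Some summits at the forkhead genes also lay in overlapping RNA genes. The replicate 1 peak chr3:71305099-71305739 had its summit in FOXP1-AS1, an antisense transcript of FOXP1, and the replicate 1 peak of FOXP4 had its summit in FOXP4-AS1, so neither peak can be given to the protein-coding gene alone. A replicate 2 summit of FOXP1, with a fold of 4.22, lay in the long non-coding RNA gene LOC124906247. The microRNA genes MIR1284, inside FOXP1, and MIR4641, inside FOXP4, held no summit of either list. None of the other protein-coding genes that reach into the windows of FOXO3, FOXO4 or FOXP4, namely AFG1L, SNX12, CXorf65, IL2RG, MED12, NLGN3 and MDFI, held a summit of either list.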
